A study of Rattus norvegicus with 19 samples.

Results

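The unoperated dorsal root ganglion of the eleventh thoracic segment (T11) was described from 5 arrays, 1 ganglion of 1 naive rat each, out of 19 arrays in the series. They were chosen by their label alone, so no measured value entered the choice. The naive rats were adult female Sprague-Dawley animals (260-310 g) that had no operation. The other 14 arrays, used below only where they show how the naive ganglion differs, came from rats of the same strain, sex, stage and weight range at day 7 (n = 7) and day 14 (n = 7) after surgery that cut, on one side, the dorsal and lateral cutaneous nerves of T9, T10, T12 and T13. None of the naive rats had sham surgery, so anaesthesia and incision cannot be told apart from the nerve cuts in any comparison with them. From 100 ng of RNA per ganglion, labelled RNA was made in 2 rounds of amplification from the poly(A) end and hybridised to a rat expression array. The submitters dropped a sixth naive array at quality control.

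A dorsal root ganglion houses the sensory neurons that serve one spinal segment. Each neuronal cell body is wrapped by satellite glial cells, and its axon runs among myelinating and nonmyelinating Schwann cells, resident macrophages, capillaries and fibroblasts, inside a capsule continuous with the coverings of the nerve and the spinal cord. The neurons fall into small-diameter nociceptors, some of which make peptides such as CGRP and substance P, and larger neurons for touch and for the position of muscles. The ganglion lies in a bony opening beside muscle, marrow and fat, tissues that can be carried along when it is taken out.

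Levels are log2 hybridisation signals of the brightest probe set of each of 14217 genes. Probe sets differ in how well they bind, so the order below is one of signal and not of RNA molecules. Among the 4525 genes with several probe sets, the median gap between the brightest and the dimmest was 2.73 log2 units. As a measured background, 64 of 70 listed genes of tissues a ganglion does not hold (liver, pancreas, kidney, testis, lens, skin and the like) had a median level of 5.19 and ranged from 4.22 for Slc12a1, a kidney transporter, to 7.49 for Pnlip, pancreatic lipase. Alb, the liver's albumin, stood at 6.13 ± 0.08 (SD, n = 5). The 95th percentile of these means, 6.82, was taken as the reference level. In all, 9658 of 14217 genes (67.9%) had a mean above it, and the median level of all genes was 8.26. The level is not a detection limit for a single probe set: Uty, a Y-linked gene that female rats lack, read 7.91 ± 0.26, while Sry read 5.76 and Eif2s3y 3.65.

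The naive arrays were alike for most genes. Correlations between arrays across probe sets lay between 0.989 and 0.994, and the median SD of a gene over the 5 rats was 0.134 log2 units. An SD above 0.5 was found for 195 genes (1.37%), an SD above 1 for 41, and a range of more than 2 log2 units for 67. By level, the median SD was 0.095 below 5, 0.165 between 7 and 9, and 0.102 above 11. The number of arrays limits the precision, since these data carry no read depth. Exactly equal values on 2 or more naive arrays occurred for 434 genes (3.05%).

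By median level, the list of neuronal structural genes stood at the top. Central glia and spinal cord genes and the genes of absent tissues stood at the bottom, with lymphocyte and mast cell markers close above them. The lists hold known markers of cell types or functions, and 637 of their 722 genes were measured. Counts of members above the reference level are to be read beside the 67.9% of all genes above it. A list near or under that share does not stand out by its count. In a whole ganglion, fewer cells of a type and less RNA per cell cannot be told apart.

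**Figure D1:**
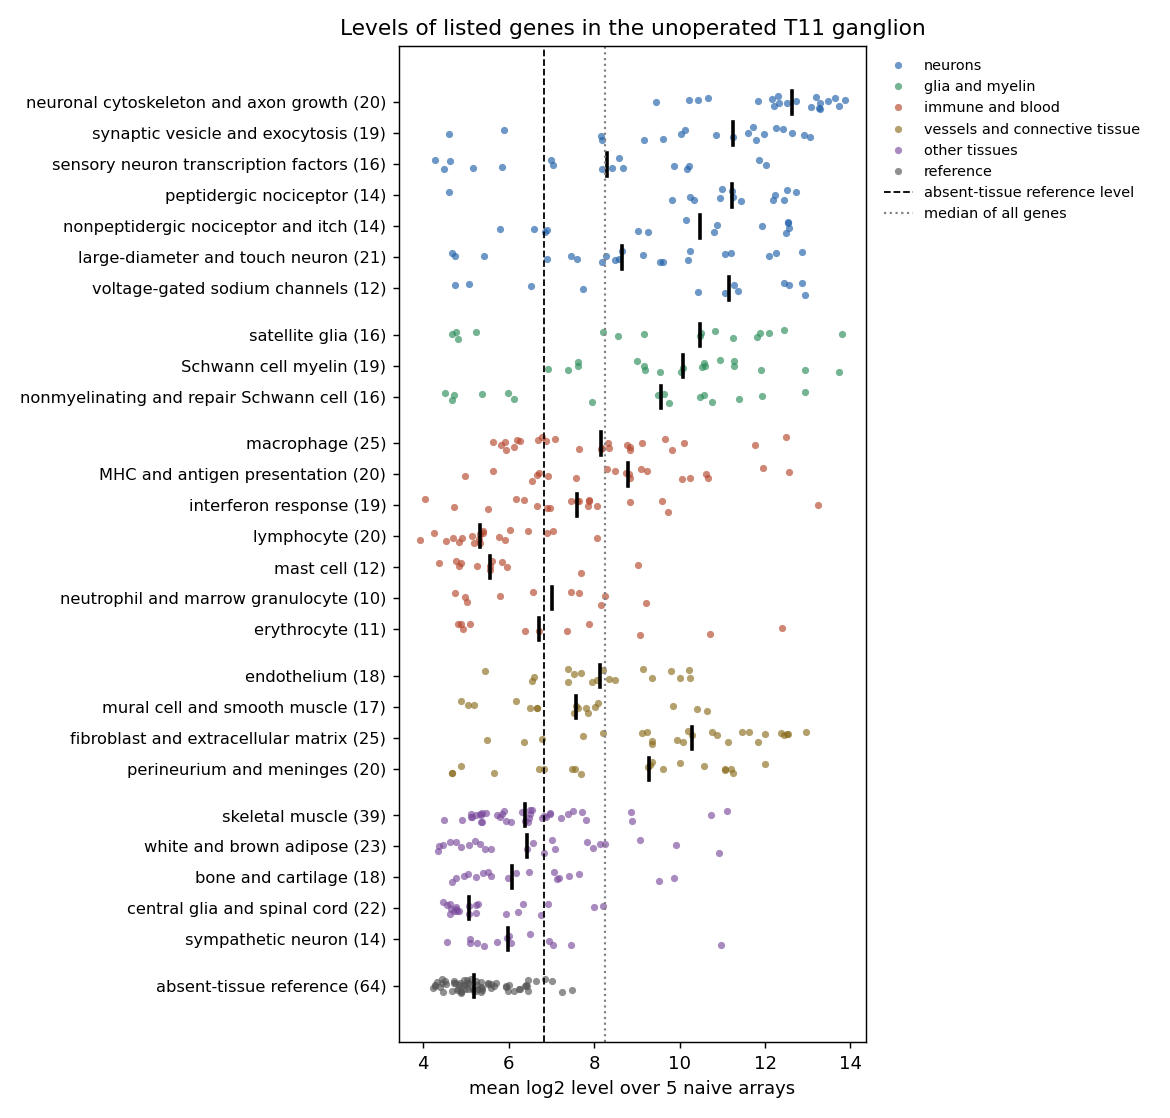
Mean log2 level over the 5 naive arrays (x axis) of each measured member of 27 gene lists, 1 point per gene, with the number of members in brackets and the median as a black bar. The dashed line marks the reference level of 6.82 and the dotted line the median of all genes, 8.26. All 20 neuronal cytoskeleton genes lie right of the reference level, against 3 of 20 lymphocyte genes.

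The brightest gene of the naive ganglion was Sncg, gamma-synuclein, a small protein abundant in peripheral neurons. It read 13.88, 13.92, 13.87, 13.86 and 13.82 on naive replicates 1 to 5, a mean of 13.87 ± 0.04. Apoe, the lipid carrier made by satellite glia and macrophages, followed at 13.81 ± 0.06, and Pmp22, a protein of compact peripheral myelin, at 13.73 ± 0.05. The first 3 genes were thus a neuronal, a glial and a myelin transcript. Map1b, a microtubule-associated protein of growing and adult sensory axons, stood at 13.72 ± 0.06, and Nefh, the heavy neurofilament of large myelinated neurons, at 13.65 ± 0.06. Among the 25 brightest genes, 17 of the 24 neighbouring pairs differed by less than the SD of either gene, Pmp22 and Map1b among them. Sncg stood above Apoe, and Apoe above Pmp22, by more than either SD. The gap between Sncg and Apoe was 0.0623 against an Apoe SD of 0.0616, and on replicate 5 Apoe (13.87) lay above Sncg (13.82).

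Of the 25 brightest genes, 4 were on the neuronal cytoskeleton list (Sncg, Map1b, Nefh and Stmn2, a tubulin-binding protein of axons), and 3 were cytoplasmic ribosomal proteins (Rps23, Rpl3 and Rpl7a). Energy supply gave another group. COX1 and COX2, subunits of cytochrome oxidase encoded in the mitochondrial genome, read 13.66 ± 0.10 and 13.63 ± 0.03, and the ATP synthase subunits Atp5f1b and Atp5mc3 read 13.43 ± 0.04 and 13.32 ± 0.04. Atp1b1, the beta subunit of the sodium pump, stood at 13.55 ± 0.06. Zwint, known both from the kinetochore of dividing cells and as a binding partner of Snap25, stood at 13.53 ± 0.04.

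The remaining members of the 25 were membrane and axonal proteins. Tmem176b (13.50) and Tmem176a (13.37) are membrane proteins best known from myeloid cells. Anxa2 (13.49) and Anxa5 (13.35) bind phospholipid in the presence of calcium, Lxn (13.49) inhibits carboxypeptidases, and Prnp (13.43) encodes the prion protein. Ndrg4 (13.49), Rtn1 (13.35) and Acot7 (13.37), an acyl-CoA thioesterase, are abundant in neurons, and Cd81 (13.32) is a tetraspanin. The smallest SD of the 25 was that of Rpl3, 0.01, and the largest that of Rps23, 0.14, whose replicate 4 (13.27) lay below the other arrays (13.44 to 13.62). Apoe, Anxa2, Map1b, Acot7 and Rpl3 each had a second, far dimmer probe set, at 4.58, 4.80, 6.38, 7.10 and 7.93. A rank in this order therefore describes the brightest probe set of a gene.

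Genes of the neuronal cytoskeleton and of axon growth had the highest median level of the marker lists, 12.62, against 8.26 for all genes. All 20 measured members were above the reference level, and 15 lay among the brightest 5% of genes. The 3 neurofilament subunits were close to each other: Nefh at 13.65, Nefl at 13.29 ± 0.02 and Nefm at 13.29 ± 0.06. Prph, the filament protein of small unmyelinated neurons, read 13.18, 13.30, 13.27, 13.25 and 13.28. Genes above a level of 11 had a median SD of 0.102, and the 100 brightest genes one of 0.055. The list also varied little, with a median SD of 0.06 against 0.134 over all genes. The exception was Dpysl3, a collapsin response mediator, at 9.15, 9.39, 9.26, 9.44 and 9.95, the dimmest member and the one of largest SD (0.31).

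Genes of transmitter release had a median of 11.24, with 17 of 19 above the reference level. Snap25, of the vesicle fusion complex, stood at 13.05 ± 0.06, Cplx1, complexin, at 12.91 ± 0.08, and Slc17a6, the vesicular glutamate transporter of sensory neurons, at 12.41 ± 0.05. Rph3a, a vesicle-associated effector of Rab3, was the dimmest at 4.60. Syt1, the calcium sensor of fast release, was the other member below the reference level, at 5.89 ± 0.09. Sv2b, a vesicle membrane protein, had the widest spread (SD 0.41), with replicates 1 and 3 at 11.87 and 11.77 and replicates 2, 4 and 5 at 12.51, 12.57 and 12.58.

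Transcription factors of sensory neurons had a median of 8.30, close to that of all genes, and 11 of 16 were above the reference level. Etv1, a factor of proprioceptive and other sensory neurons, was brightest at 12.02 ± 0.23. Drgx and Runx1, which shape nociceptors, stood at 10.21 ± 0.11 and 10.16 ± 0.13. Isl1 and Pou4f1, which define sensory neurons as a class, read 8.59 ± 0.23 and 8.18 ± 0.09. Both were above the reference level, as were 67.9% of all genes, and Pou4f1 lay below the median of all genes, 8.26. These 2 genes, like Nefl, Nefm and Syt1 above and Cldn11 below, were singled out after their values were seen. Shox2, a factor of touch neurons, had the largest SD (0.33), at 7.39 and 7.24 on replicates 1 and 2 and 6.58 to 6.90 on the others.

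The Hox genes, which record the position of a segment along the body, were taken as a group after the data were seen. Of 22 measured, 15 (68.2%) were above the reference level, near the 67.9% of all genes. Hoxd8 was the brightest at 11.87 ± 0.07. Hoxc8 was the dimmest, at 4.28 ± 0.09, below the reference level on all 5 arrays.

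Markers of peptidergic nociceptors had a median of 11.24, and 13 of 14 were above the reference level. Calca, the precursor of calcitonin and CGRP, varied little, at 12.56, 12.56, 12.51, 12.51 and 12.48. Scg3, a secretory granule protein, stood at 12.72 ± 0.12, Scn10a, the sodium channel Nav1.8, at 12.44 ± 0.18, and Trpv1, the capsaicin receptor, at 12.24 ± 0.07. Tac1, the precursor of substance P, spread more widely, at 10.73, 10.32, 10.72, 9.62 and 10.33, with replicate 4 lowest. Kit, a receptor tyrosine kinase of some nociceptors and of mast cells, was the dimmest at 4.59 ± 0.11.

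Markers of nonpeptidergic and itch neurons had a median of 10.48, with 12 of 14 above the reference level. Scn11a, the channel Nav1.9, stood at 12.56 ± 0.06, Ret, the receptor of glial-derived neurotrophic factors, at 12.54 ± 0.08, Gna14, a G protein subunit, at 12.54 ± 0.08, and P2rx3, the ATP receptor, at 12.48 ± 0.10. Cysltr2, a leukotriene receptor of itch neurons, was dimmest at 5.81. Sst, somatostatin, the peptide of an itch neuron class, had the largest spread of all 29 neuropeptide precursors and of all neuronal marker lists. It read 10.15, 8.55, 8.59, 8.02 and 9.81 (SD 0.91). Replicates 1 and 5 were more than 1 log2 unit above the other arrays, and the operated arrays spanned 8.42 to 10.34 at day 7 and 8.53 to 11.16 at day 14.

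Markers of large-diameter neurons had a median of 8.65, and 18 of 21 were above the reference level. Scn4b, a sodium channel beta subunit, stood at 12.88 ± 0.06. Kcna1 and Kcna2, the potassium channels beside the node of Ranvier, stood at 12.26 ± 0.16 and 12.10 ± 0.14. Of the neurotrophin receptors, Ntrk2 (TrkB) read 11.04, 11.31, 10.99, 11.46 and 11.20, and Ntrk3 (TrkC) read 7.90, 8.33, 7.85, 8.40 and 8.39. Both were lower on replicates 1 and 3 than on replicates 2, 4 and 5. Pvalb, the calcium buffer of proprioceptors, stood at 10.24 ± 0.26, with replicate 1 highest (10.66). Th, which marks touch neurons of hairy skin and sympathetic neurons, was at 5.43 ± 0.09, and Piezo2, the touch channel, at 4.68 ± 0.07. These readings lay below the reference level on every naive array. A dim probe set cannot be read as absence of the transcript.

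Sodium channel genes had a median of 11.17, with 9 of 12 above the reference level. Scn7a, an atypical channel also found in nonmyelinating Schwann cells, was brightest at 12.94 ± 0.08, and Scn9a, the channel Nav1.7 whose loss abolishes pain, stood at 11.28 ± 0.13. Scn8a, the channel of adult nodes, read 4.74 ± 0.06, and Scn2a had the widest spread at 6.30, 6.67, 6.08, 6.60 and 6.99. Potassium channel subunits were a family taken after the data were seen. Of 75, 40 (53.3%, against 67.9% of all genes) were above the reference level, with Kcna1 and Kcna2 the brightest. Of 15 TRP channels, 8 were above it, led by Trpv1, and of 16 GABA-A receptor subunits 5 were, led by Gabra2 at 8.80 ± 0.32.

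Satellite glial markers had a median of 10.48, and 12 of 16 were above the reference level. After Apoe came S100b, a calcium-binding protein of glia, at 12.44 ± 0.08, Aldoc, a glycolytic enzyme, at 12.10 ± 0.08, and Cadm1, an adhesion molecule, at 11.88 ± 0.11. Fabp7, the fatty-acid-binding protein that marks satellite glia, read 10.67, 10.48, 10.08, 10.51 and 10.74. Gfap, the filament of reactive glia, read 8.09, 8.32, 7.55, 8.72 and 8.34, the largest SD of the list (0.43). Replicate 3 was the lowest array for both, and for 9 of the 16 members, where it was so for 14.2% of all genes. Kcnj10, the potassium channel Kir4.1 of satellite glia, read 4.68 ± 0.10, below the reference level.

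All 19 measured myelin genes were above the reference level, with a median of 10.09. After Pmp22 came Mbp, myelin basic protein, at 12.93 ± 0.16, Prx, periaxin, at 11.90 ± 0.22, and Cnp, a phosphodiesterase of myelin, at 11.28 ± 0.25. Mbp read 12.66, 12.96, 12.91, 13.08 and 13.01, and Prx read 11.54, 11.94, 11.92, 12.14 and 11.94. Both were lowest on replicate 1 and highest on replicate 4. The same held more widely: 10 of 19 members were lowest on replicate 1, where 25.7% of all genes were, and 10 were highest on replicate 4, where 25.3% of all genes were. Egr2, the factor that drives peripheral myelination and also an immediate early gene, departed from this, at 10.76, 11.56, 11.07, 10.38 and 10.91. Sox10, the factor of all Schwann and satellite cells, stood at 9.18 ± 0.32. Mag, a myelin adhesion protein, was the dimmest at 6.92 ± 0.36.

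Of the nonmyelinating and repair Schwann cell markers, 10 of 16 (62.5%, against 67.9% of all genes) were above the reference level. Ngfr, the low-affinity neurotrophin receptor, stood at 11.94 ± 0.16, Sostdc1, a secreted antagonist, at 11.38 ± 0.21, and L1cam, an adhesion molecule, at 10.75 ± 0.23. Shh, which repair cells switch on after injury, was dimmest at 4.5 ± 0.08. Bdnf, a neurotrophin also made by nociceptors, read 8.32, 7.78, 8.04, 7.53 and 8.03.

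Macrophage markers had a median of 8.15, and 16 of 25 (64%, against 67.9% of all genes) were above the reference level. Lyz2, lysozyme, stood at 12.49 ± 0.39, Lgmn, a lysosomal protease, at 11.77 ± 0.13, Fcer1g, an Fc receptor chain, at 10.09 ± 0.29, and C1qa, of complement, at 9.83 ± 0.23. Cd68, a lysosomal membrane protein, read 7.90, 8.08, 8.33, 8.26 and 8.17. Cd163, the haemoglobin scavenger receptor of perivascular macrophages, read 5.89, 6.99, 6.57, 5.73 and 6.14, the largest SD of the list (0.52). Of the 25 members, 14 were lowest on replicate 1 (25.7% of all genes) and 12 were highest on replicate 3 (20.7% of all genes). Lyz2, which granulocytes also make, was highest on replicates 3 (12.97) and 5 (12.82).

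Genes of antigen presentation had a median of 8.79 with 15 of 20 above the reference level, led by B2m at 12.56 ± 0.10 and by the class II genes RT1-Da (11.96 ± 0.16), Cd74 (10.66 ± 0.14) and RT1-Db1 (10.63 ± 0.29). RT1-T24-4, a class I gene of a family of near-identical copies, read 8.29, 9.93, 8.74, 8.81 and 8.47, and its probes may not separate it from its relatives. Of the interferon response genes, 13 of 19 (68.4%, against 67.9% of all genes) were above the reference level. Ifi27 was nearly constant at 13.24 ± 0.02, while Rsad2, an antiviral enzyme, read 9.77, 8.59, 10.32, 9.11 and 10.18, and Usp18, which restrains interferon signalling, read 8.67, 9.14, 8.07, 9.57 and 8.75. The list did not move as one: Rsad2 was highest on replicate 3, where 12 of the 19, Usp18 among them, were lowest, against 14.2% of all genes.

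Lymphocyte markers lay near the background, with a median of 5.33 and 3 of 20 above the reference level (Il7r at 8.06, Lck at 7.04 and Nkg7 at 6.91). Cd3e, of the T cell receptor complex, read 5.77 ± 0.10. Of 12 mast cell markers, 2 were above it, Srgn at 9.02 and Gata2 at 7.69, and neither is found in mast cells alone. Mcpt10, a mast cell protease, read 4.38, 3.98, 5.97, 4.27 and 5.24. Replicates 3 and 5 were the highest 2 arrays for it, an order met again in the marrow genes below.

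Endothelial markers had a median of 8.14, with 15 of 18 above the reference level. Cldn5, of tight junctions, stood at 10.24 ± 0.23, Slco1a4, an organic anion transporter, at 10.23 ± 0.24, and Pecam1, an adhesion molecule of all endothelium, at 7.38 ± 0.27. Of these markers, 10 of 18 were lowest on replicate 1, against 25.7% of all genes. Mural cell and smooth muscle genes had a median of 7.57, with 10 of 17 (58.8%, against 67.9% of all genes) above the reference level. Mylk, myosin light chain kinase, stood at 10.65 ± 0.22, and Tagln, of contractile smooth muscle, read 8.88, 10.10, 10.23, 9.80 and 10.22, with replicate 1 the lowest.

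Fibroblast and matrix genes had a median of 10.30 and 22 of 25 above the reference level. Dcn, decorin, stood at 12.96 ± 0.11, Vim, vimentin, at 12.54 ± 0.07, Thy1, also a neuronal surface protein, at 12.51 ± 0.09, and Sparc, a collagen-binding protein, at 12.44 ± 0.15. Col6a2, a chain of collagen VI, read 7.03, 7.70, 7.77, 8.55 and 7.69, the largest SD (0.54). The list mean was 9.88, 10.17, 10.21, 10.43 and 10.26, with 17 of 25 members lowest on replicate 1 (25.7% of all genes) and 14 highest on replicate 4 (25.3%). Replicate 4 also had the largest gap between 3' and 5' probes of the GAPDH control, 2.48 log2 units against 1.92 to 2.13 on the other naive arrays. For hexokinase its gap was 1.52 against 1.07 to 1.41. For beta-actin the largest gap was on replicate 3, 5.03, with replicate 4 at 4.90. On replicate 4, 38 of 47 cytoplasmic ribosomal protein genes were at their lowest, against 24.4% of all genes. The part of RNA quality in these differences was not tested.

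Perineurium and meninges genes had a median of 9.29, with 15 of 20 above the reference level, and a largest SD of 1.27. Mgp, matrix Gla protein, stood at 12.01 ± 0.28, Igfbp6, a growth factor binding protein, at 11.26 ± 0.42, and Ogn, a small proteoglycan, at 11.20 ± 0.28. Ptgds, the prostaglandin D synthase of the arachnoid membrane, read 11.72, 12.18, 9.06, 10.60 and 11.79. Replicate 3 lay more than 1.5 log2 units below any other array, and of the 41 genes with an SD above 1 Hbb alone was brighter. Cldn11, the tight junction protein of the arachnoid, was highest on replicate 2 as well (9.09, 10.52, 8.96, 9.79 and 9.76). On that array 8 of the 20 members were highest, where 17.0% of all genes were.

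Markers of other tissues were of several kinds. Many were near the background, some were steady and well above it on all 5 arrays, and others were high on single arrays. Central glia and spinal cord genes had a median of 5.08, and 3 of 22 were above the reference level: Gfap, Mag and Slc5a7, the choline transporter, at 7.99 ± 0.25. Gfap and Mag are also made by peripheral glia. Of the sympathetic neuron markers, 4 of 14 were above it, led by Chrna3, a nicotinic receptor subunit, at 10.98 ± 0.31, with Chrnb4 at 7.45, Npy at 7.03 and Slc18a2 at 6.95. Th was at 5.43 and Phox2a, an autonomic transcription factor, at 4.56.

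Bone and cartilage genes (7 of 18 above the reference level, led by Cnmd at 9.86 ± 0.13) had a list mean between 6.31 and 6.53. Of the 18, 7 were highest on replicate 5, against 12.3% of all genes. Mmp13, a collagenase, read 5.24, 4.88, 4.91, 4.81 and 6.37, with replicate 5 alone high, though below the reference level. Col2a1, the collagen of cartilage, singled out after its values were seen, read 6.74, 6.99, 6.77, 7.75 and 7.68, with replicates 4 and 5 above the others. Among adipose genes 10 of 23 were above it. Acsl1, an acyl-CoA synthetase that other cells also make, stood at 10.91 ± 0.17. Adipoq, the fat cell hormone adiponectin, read 5.83, 7.33, 5.85, 6.98 and 6.84, and Cfd, adipsin, read 7.14, 8.71, 8.44, 8.38 and 8.64. Adipoq passed the reference level on replicates 2, 4 and 5, while Ucp1, which marks brown fat, stayed at 4.76 ± 0.03. Of the 23 keratins of epithelia, 4 were above the reference level.

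Skeletal muscle genes set replicate 1 apart from the other naive rats. The mean of the 39 listed genes was 8.25, 6.05, 6.14, 6.17 and 5.99, and 34 of the 39 were highest on replicate 1, where 24.7% of all genes were. Tnnc2, the calcium-binding troponin of fast muscle, read 11.96, 5.04, 5.73, 6.59 and 5.50, the largest SD of any gene (2.85). Myl1, the essential light chain of fast myosin, read 11.56, 5.38, 5.41, 6.22 and 5.38. Ckm, muscle creatine kinase, read 11.13, 5.97, 6.21, 6.67 and 6.11, and Acta1, skeletal alpha-actin, read 12.09, 8.06, 8.27, 8.16 and 7.87. On replicate 4, Tnnc2, Myl1 and Ckm were also above replicates 2, 3 and 5, by far less. Not every muscle gene followed. Myh1, a fast myosin heavy chain, read 11.19, 11.22, 10.98, 11.14 and 11.05, and Tpm2, a tropomyosin also made in smooth muscle, read 8.39, 9.34, 8.95, 8.53 and 9.08, lowest on replicate 1.

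The promoters of 2 of these genes and of 2 genes of the marrow order described next are shown, since each pair was highest on the same array. They are the 250 bases before the start of transcription, 5′ to 3′ on the gene's strand, from RefSeq on GRCr8. Capitals mark TATAAA, the E-box CAGCTG, the GATA motif AGATAA and the CArG box, each searched on both strands, with no overlap between matches.
Acta1 promoter, chr19:68784195-68784444, minus strand: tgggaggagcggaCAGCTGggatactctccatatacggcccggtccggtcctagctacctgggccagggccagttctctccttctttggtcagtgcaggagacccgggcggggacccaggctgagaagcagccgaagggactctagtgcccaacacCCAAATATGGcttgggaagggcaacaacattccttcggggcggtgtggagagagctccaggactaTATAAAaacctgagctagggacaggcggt
Ckm promoter, chr1:88189211-88189460, plus strand: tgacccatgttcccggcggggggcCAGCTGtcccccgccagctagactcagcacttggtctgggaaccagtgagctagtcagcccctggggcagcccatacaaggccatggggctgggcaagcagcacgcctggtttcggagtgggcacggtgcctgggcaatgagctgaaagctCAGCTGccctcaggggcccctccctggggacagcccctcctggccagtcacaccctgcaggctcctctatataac
S100a9 promoter, chr2:178490623-178490872, minus strand: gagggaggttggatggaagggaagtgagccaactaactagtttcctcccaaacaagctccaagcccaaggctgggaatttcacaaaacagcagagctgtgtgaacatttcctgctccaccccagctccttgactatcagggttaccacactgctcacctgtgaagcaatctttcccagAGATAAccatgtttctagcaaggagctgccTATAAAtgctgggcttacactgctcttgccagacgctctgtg
Alas2 promoter, chrX:22895200-22895449, plus strand: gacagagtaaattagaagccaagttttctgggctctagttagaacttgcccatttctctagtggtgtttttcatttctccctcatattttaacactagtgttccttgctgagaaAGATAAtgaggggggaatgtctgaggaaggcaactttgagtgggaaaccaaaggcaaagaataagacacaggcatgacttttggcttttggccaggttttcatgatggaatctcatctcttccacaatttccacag
Acta1 held TATAAA 29 bases, a CArG box 94 bases and CAGCTG 237 bases before the start (counted from the first base of the match as printed). Ckm held CAGCTG at 226 and 75 bases. S100a9 held AGATAA at 72 and TATAAA at 42 bases, and Alas2 held AGATAA at 136 bases. Of 33469 RefSeq windows of the same length, 12.9% held TATAAA, 12% CAGCTG, 10.3% AGATAA and 1.5% a CArG box. Among the 13 muscle genes of the 25 most variable, 12 had a window, of which 5 held TATAAA, 5 CAGCTG and 1 (Acta1) a CArG box. Of the 6 marrow and blood genes 3 had one, and 2 held AGATAA. These are matches of letters, not tested sites.

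Genes of marrow granulocytes and of red blood cells followed an order of their own. The granulocyte list mean was 6.76, 5.56, 8.09, 6.26 and 7.28, and the erythrocyte list mean 7.42, 6.34, 8.15, 6.74 and 7.82. In both, replicate 3 was highest, then 5, 1, 4 and 2. S100a9, a calprotectin subunit of neutrophils, read 9.73, 6.39, 11.32, 8.52 and 10.17. Alas2, the first enzyme of haem synthesis in red cell precursors, read 9.54, 7.04, 11.02, 8.01 and 9.73. Each spanned more than 3 log2 units between replicates 2 and 3, with replicates 1, 4 and 5 between them.

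Several other members were likewise highest on replicate 3 and lowest on replicate 2, with the arrays between them not always in one order. Defa5, an alpha-defensin, read 8.27, 6.24, 9.76, 7.76 and 8.81, Fcnb, a ficolin of marrow myeloid cells, 7.59, 6.33, 9.89, 7.69 and 9.73, and Slc4a1, the red cell anion exchanger, 7.21, 5.70, 8.88, 6.60 and 8.39. Hbb, beta-globin, read 13.31, 10.96, 13.59, 11.24 and 12.84, and Hba-a3 read 11.17, 9.65, 12.32, 9.68 and 10.74. For these globins replicate 1 lay above replicate 5, unlike for Alas2 and Slc4a1, and for Fcnb replicate 4 lay above replicate 1. Of all genes, 100 (0.703%) had the exact order 3, 5, 1, 4, 2, and of the 100 most variable genes 16 had it. Not all members were alike. Of 10 granulocyte genes, 8 were highest on replicate 3, and of 11 erythrocyte genes 6 were and 4 were highest on replicate 5. Over all genes, 20.7% were highest on replicate 3 and 12.3% on replicate 5. Csf3r, a receptor of granulocyte growth factor, and Rhag, a red cell membrane protein, were highest on replicate 3 too. They spread far less, at 4.74 ± 0.25 and 4.82 ± 0.19, below the reference level. Replicates 1 and 3 share the first letters of their animal codes (AJ), and replicates 2, 4 and 5 share others (AK). The labels do not say what these letters mean. The list means did not split by them: replicate 4 (6.17) lay above replicate 3 (6.14) for muscle, and replicate 5 (7.28) above replicate 1 (6.76) for granulocyte genes. Over all genes, replicates 1 and 3 both lay below the other 3 arrays for 9.17% and both above them for 13.1%. Both lay above for 16 of 39 muscle genes, 3 of 11 erythrocyte genes and 2 of 10 granulocyte genes, and both below for 0 of these. The largest share above among the lists was that of sympathetic neuron markers, 6 of 14, and the largest below that of cholesterol and fatty acid synthesis, 8 of 20.

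**Figure D2:**
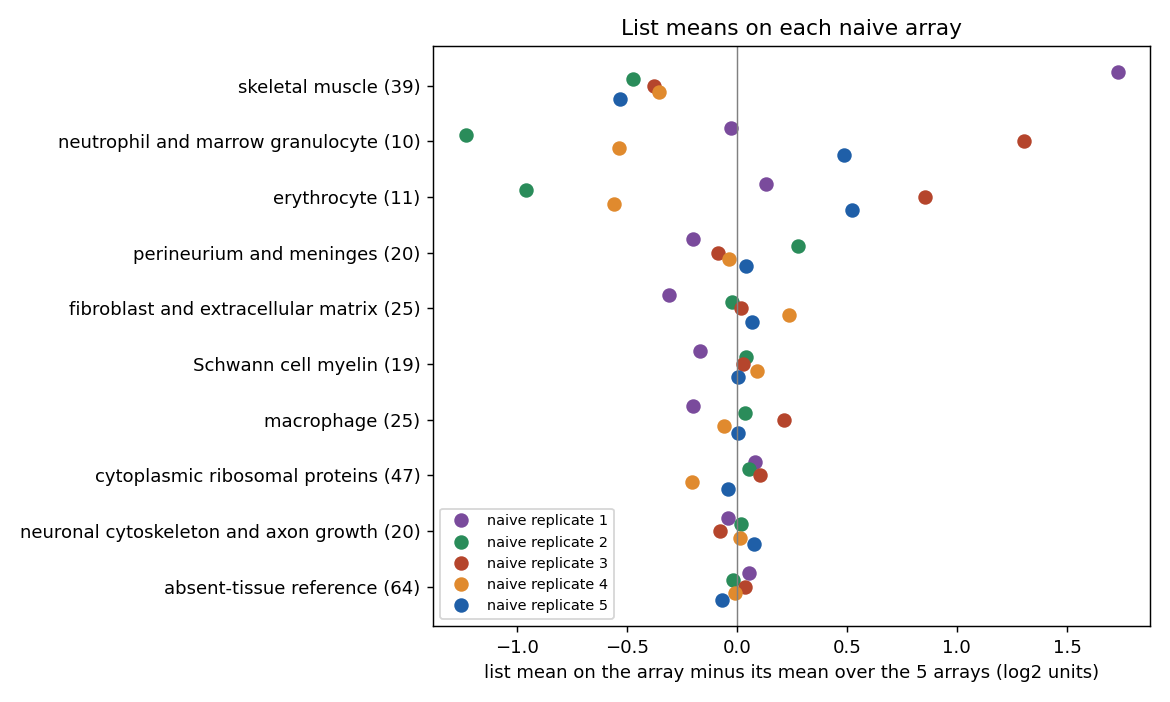
Mean of each gene list on each of the 5 naive arrays, as the difference in log2 units from its mean over the 5 arrays (x axis), with list sizes in brackets and 1 colour per array. Skeletal muscle has replicate 1 alone to the right, at 8.25 against 5.99 to 6.17 on the others, while granulocyte and erythrocyte genes spread all 5 arrays in one order; neuronal cytoskeleton genes and the absent-tissue reference hardly move.

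Ranked by spread, the 25 most variable genes were mostly these transcripts. They were ranked among genes whose highest naive array passed the reference level. Muscle genes made up 13 of the 25, granulocyte genes 4 and erythrocyte genes 2, and 0 of 25 were on a neuronal, satellite glial or myelin list. The other 6 were Mcpt8, RatNP-3b, Lcn2, Adss1, H19 and Pfdn6. Mcpt8, a protease of basophils, had the fifth largest SD (5.59, 3.98, 8.45, 4.65 and 7.51). With RatNP-3b, a neutrophil defensin, and Lcn2, lipocalin-2, it was highest on replicate 3, then 5, and lowest on replicate 2.

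Adss1, a muscle enzyme of purine synthesis (8.41 on replicate 1 against 4.94 to 5.21), and H19, a noncoding RNA kept on in adult muscle (10.93 against 7.45 to 8.39), were highest on replicate 1. Pfdn6, a subunit of the chaperone prefoldin, took 2 levels instead, 9.91, 9.93 and 9.88 on replicates 1, 3 and 5 and 7.26 and 6.81 on replicates 2 and 4. In the operated rats it also reached both, from 6.82 to 10.24 at day 7 and from 6.76 to 10.24 at day 14. Cwc25, a splicing factor singled out after its values were seen, had 2 levels as well, 5.68 to 5.88 on replicates 1, 2 and 3 and 7.79 and 7.70 on replicates 4 and 5. The operated arrays did not reach its upper level, from 5.64 to 6.93 at day 7 and from 5.73 to 7.02 at day 14.

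**Figure D3:**
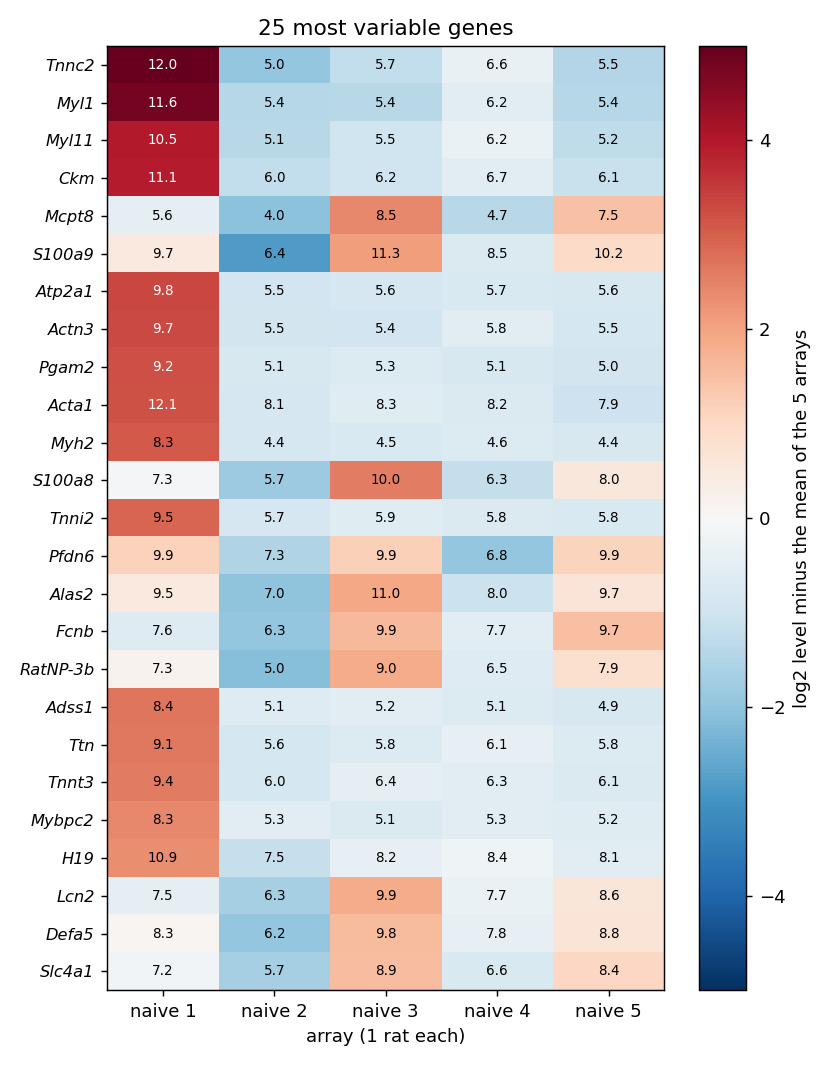
Log2 level of the 25 most variable genes (rows, largest SD first) on the 5 naive arrays (columns, 1 rat each), printed in each cell, with the colour giving the difference from the gene's mean over the 5 arrays. Muscle genes such as Tnnc2 (11.96) are high on naive 1, marrow genes such as S100a9 (11.32) on naive 3 and 5, and Pfdn6 on naive 1, 3 and 5.

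Without replicate 1, 10 of the 25 stayed among the 25 most variable, and 20 to 24 did when any other array was left out. Among the 100 most variable genes, 22 were muscle genes, 7 granulocyte and 7 erythrocyte genes, 2 were of perineurium and meninges, 1 was of a neuronal list (Sst), and 53 were on no list. The spread was not a matter of level alone. Hbb and Ptgds were bright and variable. Above a level of 11, 3 of 1649 genes (0.18%) had an SD above 0.5, against 1.37% of all genes. The 20 neuronal cytoskeleton genes, like most bright genes, stayed below it, with an SD of at most 0.31.

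**Figure D4:**
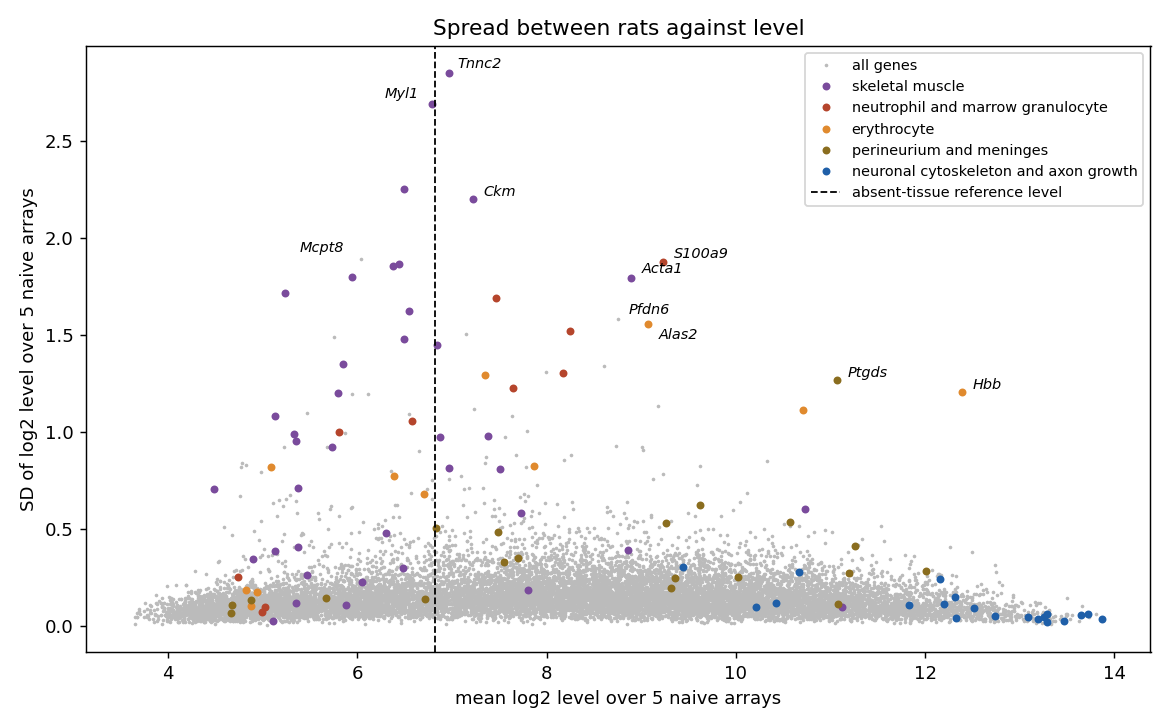
SD over the 5 naive arrays (y axis, log2 units) against mean log2 level (x axis) of 14217 genes (grey), with 5 lists in colour and the reference level of 6.82 dashed. Most genes lie near the median SD of 0.134, and muscle, granulocyte and erythrocyte genes reach SDs between 1 and 2.85.

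Genes known to follow activity, stress and the time of day varied less than muscle genes, but not less than all genes. The median SD was 0.18 for immediate early genes, 0.14 for heat shock and stress genes and 0.24 for clock genes. It was 0.134 over all genes and 0.93 for muscle genes. Of 29 immediate early genes, 19 (65.5%, against 67.9% of all genes) were above the reference level, led by Jund (11.41 ± 0.14), Klf6 (11.29 ± 0.10) and Egr1 (11.18 ± 0.38). Of the 29, 14 were highest on replicate 3, where 20.7% of all genes were. Egr1 read 10.95, 10.74, 11.49, 11.66 and 11.09, with replicates 3 and 4 highest. Ccn2, a matrix growth factor that responds to stretch, read 9.66, 10.81, 10.71, 9.20 and 10.22, lowest on replicate 4. Of 16 clock genes, 12 were above it. Per1, which follows the day cycle and glucocorticoids, had the largest spread of them, at 8.76, 9.39, 10.05, 8.79 and 9.55. Ddit4, a stress-induced brake on growth signalling, read 9.31, 10.61, 10.34, 9.36 and 10.23. Both were lower on replicates 1 and 4 than on replicates 2, 3 and 5.

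Enzymes of cholesterol and fatty acid synthesis, which supply myelin and membranes, were all above the reference level (20 of 20, median 11.29), led by Scd2 at 12.73 ± 0.05 and Fdps at 12.57 ± 0.07. Heat shock and stress genes had a median of 11.30, led by Hsph1 at 12.70 ± 0.04. The nerve injury list, chosen for what it does after axotomy, had a naive baseline with a median of 7.64. Of its 25 members, 14 (56%, against 67.9% of all genes) were above the reference level. Gap43, a growth cone protein kept on in adult sensory neurons, stood at 12.73 ± 0.05, Hspb1, a small heat shock protein, at 12.42 ± 0.12, and Jun at 10.55 ± 0.22. Atf3, the factor switched on by axon damage, read 8.10, 8.17, 7.94, 8.44 and 8.17, above the reference level on all 5 arrays. Uty, which female rats lack, read 7.67 to 8.31 on the same arrays. The naive level of Atf3 can therefore not be read as expression of the gene. Crh, corticotropin-releasing hormone, read 9.67, 8.68, 8.50, 8.16 and 8.53, and Il6 was dimmest at 4.33 ± 0.05.

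The comparison with operated rats asked which naive transcripts change while the intact T11 nerve sprouts into denervated skin. At day 7, limma called 0 of 31042 probe sets (0%) at an adjusted p of 0.05 (Benjamini-Hochberg), and 2700 had an unadjusted p under 0.05. At day 14, 43 passed (0.139%), 8 higher (0.0258%) and 35 lower (0.113%) than naive. None of the 25 brightest and none of the 100 most variable genes was among them in either comparison. The day 14 count rests on the naive arrays. It was 401 without naive replicate 1, 28 without replicate 2, 5 without replicate 3, 45 without replicate 4 and 15 without replicate 5. It was between 6 and 65 without single day 14 arrays, and 0 with the first letters of the animal codes as a block. Of the day 14 rats, 5 had the letters AI, found on no naive rat, and 2 had AJ. Of the naive rats, 2 had AJ and 3 had AK. The block fit can therefore tell letters and group apart only in part. The muscle list mean was highest on naive replicate 1. The granulocyte and erythrocyte list means were highest on replicate 3, in a graded order over all 5 arrays. The part of these transcripts in the counts of called probe sets was not tested.

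Of all listed genes, Bdnf passed. Its naive values, 7.53 to 8.32, were followed by 8.30 to 9.08 at day 7 and 8.30 to 9.11 at day 14, so that naive replicate 1, at 8.32, lay above the lowest array of each operated group. At day 14 it was higher by 0.83 ± 0.16 (SE) log2 units (limma adjusted p = 0.038), and at day 7 by 0.79 ± 0.16 (limma adjusted p = 0.176). The day 14 call was lost without naive replicate 2, 3, 4 or 5 (limma adjusted p from 0.063 to 0.098), without day 14 replicate 2, 4, 5 or 6 (0.057 to 0.086), with the animal-code letters as a block (0.726), with the replicate number as a block (0.129) and with day 14 and naive arrays fitted alone (0.059). Its size lay between 0.66 and 0.99 in all of these and the other alternatives run.

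Naive list means stood away from the operated ones both for lists that varied between naive rats and for steady ones. The nerve injury list, with a median naive SD of 0.19, had a mean of 7.55 in naive rats, 8.11 at day 7 and 8.30 at day 14. Its naive arrays, 7.42 to 7.65, overlapped those of day 7 (7.54 to 8.93) and day 14 (7.62 to 9.11). The mean of neuropeptide precursors was 7.36, 7.61 and 7.70, and that of sympathetic neuron markers 6.29, 6.54 and 6.64. Among the sympathetic markers Npy moved most, from 7.03 in naive rats to 9.52 ± 1.47 at day 7 and 10.01 ± 1.91 at day 14. Th stayed at 5.43, 5.38 and 5.54, so the mean of this list rests largely on Npy. The median differences over members were 0.30 at day 7 and 0.45 at day 14 for nerve injury genes, and 0.049 and 0.11 for neuropeptide precursors and 0.039 and 0.14 for sympathetic markers. Of 10 granulocyte genes, 8 had a lower mean than naive at both times, by a median of -0.80 at day 7 and -0.82 at day 14, where the median over all genes was -0.0039 and 0.0022. Of all 14217 genes, 7321 were below naive at day 7 and 7026 at day 14. Of 11 erythrocyte genes, 11 were below naive at day 7 (median -0.46) and 10 at day 14 (median -0.42). No member of these lists passed the threshold at either time. The naive granulocyte means spanned 5.56 to 8.09, wider than 5.76 to 6.83 at day 7 and 5.69 to 6.84 at day 14, and without naive replicates 1 and 3 the medians were -0.26 and -0.28. For the erythrocyte list they were then -0.078 and -0.028.

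Muscle genes were high on single operated arrays too. Their list mean had a median of 6.44 and a highest array of 8.0 at day 7, and 6.23 and 7.13 at day 14, beside 8.25 on naive replicate 1. Tnnc2 reached 11.34 on a day 7 array and 9.56 on a day 14 array. The list's median difference from naive was -0.067 at day 7 and -0.28 at day 14, and it turned to 0.32 and 0.19 without naive replicate 1. The 19 myelin genes all had a lower mean at day 7 than in naive rats (median -0.24), as had 7321 of all 14217 genes. At day 14, 13 of 19 had a higher one (median 0.043), as had 7191 of all genes. None passed the threshold at either time, and the naive list means of 9.85 to 10.11 overlapped those of day 7 (9.38 to 10.07) and day 14 (9.66 to 10.22). Both comparisons share the same 5 naive rats.

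**Figure D5:**
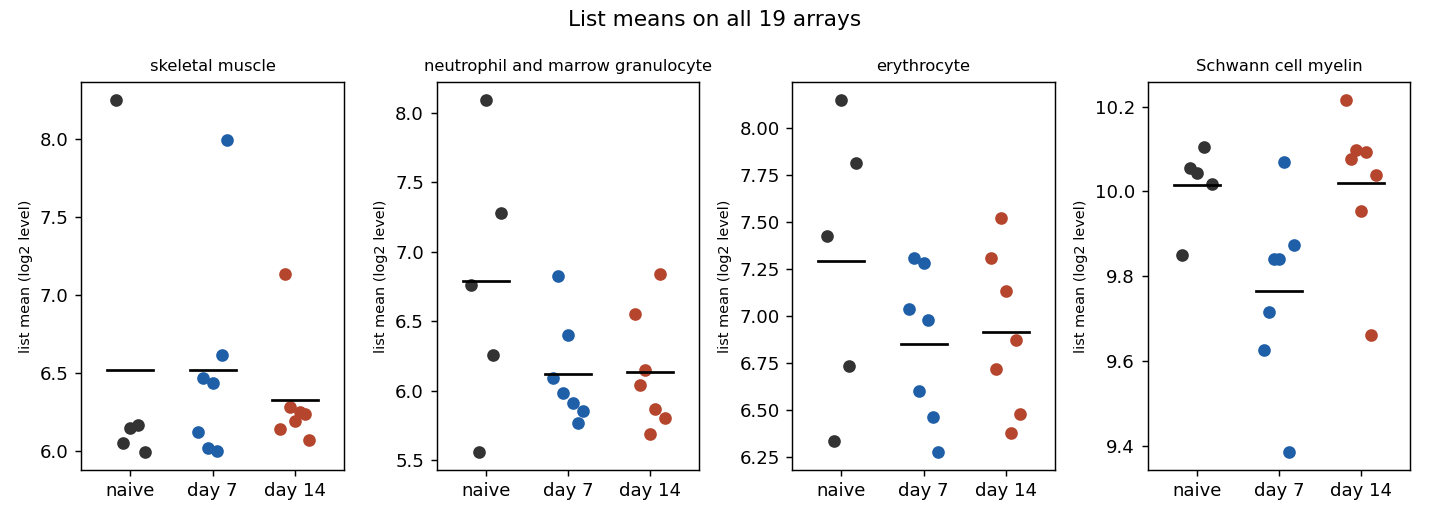
Mean log2 level of 4 gene lists on each of the 19 arrays, grouped as naive (5), day 7 (7) and day 14 (7), with the group mean as a black line and a y axis of its own for each list. One naive array stands at 8.25 for skeletal muscle and 1 day 7 array at 8.0, and the naive granulocyte means span 5.56 to 8.09.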

How the data were processed

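Expression was measured on single T11 ganglia with 1 array per rat. The deposited values are log2 levels per probe set, made by the authors with RMA, per the submitters' processing notes, which also name limma, with versions not given in the sources used here. RMA gives all arrays one distribution, so a shift of most transcripts would be hidden. The 57 control probe sets of 31099 were left out. Names came from the platform annotation, updated to RefSeq names of GRCr8 (20758 probe sets through gene identifiers, 2 through accessions, 66 kept). Of the 31042 probe sets, 20826 had 1 symbol, 436 several and 9780 none, and those with several were not named.

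Genes were ranked on their brightest naive probe set by mean and SD with pandas 2.3.3 and numpy 2.4.6 in Python 3.11.15. Plots were drawn with matplotlib 3.10.9. Operated and naive rats were compared with limma 3.58.1 in R 4.3.3 (lmFit and eBayes on all 3 groups, Benjamini-Hochberg over 31042 probe sets, threshold 0.05), tested on simulated data. The rats are separate animals. Genes were named if among the 25 brightest or the 25 of largest SD, as the 4 brightest, the dimmest or the most variable member of a list, as a list member past the threshold, or from a fixed set of markers. Others are said to be chosen after their values were seen, as are the Hox, ribosomal, channel, neuropeptide and keratin families. The members and lists were chosen with earlier results of these data known. Alternatives covered the summary over probe sets, possible cross-hybridisation, normalization, the reference level, the measure of spread, the fit and its samples, blocks, the threshold and each array left out. Same-numbered arrays are different rats and are not paired.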

Additional observations from a re-analysis of the deposited data

Results flagged for a closer look

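For each printed gene and each list mean, the naive array farthest out was set against the nearest of the others. Of 218 values examined, 19 are given here because that gap was more than 0.71 of the group's range, the 95% critical value of Dixon's test for 5 samples. Chance flags about 1 in 20 groups, but many of these genes were printed because their SD was among the largest and several move together, so the 19 cannot be read against that rate. Replicate 1 was the array apart in 11 of the 19. Its skeletal muscle list mean was 8.25 (nearest 6.17), and among genes of muscle Tnnc2 stood at 11.96 (nearest 6.59), Myl1 at 11.56 (6.22), Ckm at 11.13 (6.67), Acta1 at 12.09 (8.27), Adss1 at 8.41 (5.21) and H19 at 10.93 (8.39). On the same array the GABA-A receptor subunit list mean was 6.17 (nearest 6.0), Slc12a1, of the absent-tissue reference, 4.30 (4.22), Cfd 7.14 (8.38) and Ogn 10.72 (11.21), the last 2 as the lowest array.

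Replicate 3 was apart for Fcer1g at 10.60 (nearest 10.04), for Rhag at 5.14 (4.81) and, as the lowest array, for Kcna2 at 11.86 (12.11). Replicate 2 was apart for Jun at 10.94 (10.50) and Rph3a at 4.74 (4.60), replicate 4 for Rpl7a at 13.17 (13.32) and replicate 5 for the nonmyelinating Schwann cell list mean at 8.46 (8.53) and Mmp13 at 6.37 (5.24). The values of Rph3a, Rhag, Mmp13 and Slc12a1 and the GABA-A list mean lie below the reference level, which 5 of the 16 GABA-A subunits passed. Of the absent-tissue reference genes, 45.3% were highest on replicate 1, against 24.7% of all genes.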

How the results depend on the processing

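Of the 25 brightest genes, 17 stayed with the mean over a gene's probe sets, 25 without probe sets that may cross-hybridise, and 23 to 24 when single naive arrays were left out. Of the 25 most variable, 10 to 24 stayed without single arrays, 10 without naive replicates 1 and 3 together, 9 by median absolute deviation and 14 when the mean had to pass the reference level. Genes above the reference numbered 7778 to 10225 over all alternatives, and the median SD 0.117 to 0.144. Genes with an SD above 0.5 numbered 164 to 237 without single naive arrays and 153 without replicates 1 and 3. At day 14 the count of 43 became 28 with quantile normalization again, 76 with array weights, 13 with the 2 groups alone, 9 with the replicate block, 0 with the animal-code block, 729 at a threshold of 0.10, 5 to 401 without single arrays and 379 without naive replicates 1 and 3. At day 7 it was 0 to 2 without single arrays and 17 without naive replicates 1 and 3, and 0 otherwise. The replicate numbers do not pair rats: 3 of 17 same-numbered pairs had a correlation of deviations above 0.1 (-0.26 to 0.33). The muscle list's median difference turned to 0.32 at day 7 and 0.19 at day 14 without naive replicate 1 (as low as -0.19 and -0.42 without replicate 5), and to 0.31 and 0.23 without replicates 1 and 3, where that of myelin at day 14 turned to -0.041. The cause was not tested for these shifts. Leaving out replicates 1 and 3, the SD threshold result and the list differences were chosen after seeing the data. Dim probe sets bound what can be said of low genes, since probe sets of one gene differ widely.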

Other observations

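The spread between naive rats can be set beside that in operated rats, list by list. The median SD of the granulocyte genes was 1.14 in the 5 naive rats, 0.39 at day 7 and 0.44 at day 14, and that of erythrocyte genes was 0.82, 0.28 and 0.24. For muscle genes it was 0.93, 0.72 and 0.28. The nerve injury and macrophage lists stood the other way round. The nerve injury genes had a median SD of 0.19 in naive rats, 0.48 at day 7 and 0.39 at day 14, and macrophage genes 0.24, 0.54 and 0.30. Over all genes the median SD was 0.134, 0.137 and 0.135. These differences in spread were not tested.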
